A study of Rattus norvegicus with 16 samples.

Results

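The SLC25 family consists of carrier proteins that move metabolites across membranes, nearly all of them across the inner mitochondrial membrane. Its members were taken as all array features with a single platform gene symbol of the form Slc25a followed by a number, and a gene with several probe sets was represented by the probe set with the highest mean over the 16 arrays. The rule gave 37 genes, covered by 48 probe sets, of 13439 genes with a single symbol. Of these, 36 genes passed a filter on dim features (above a log2 signal of 3.68 on at least 4 arrays), as did 11433 genes in all. Slc25a31, the ADP/ATP carrier of testis, was above that line on 1 array and was not tested. Slc25a41 was above it on 4 arrays, Slc25a53 on 15 and each of the others on 16. Family members without a probe set of a single symbol were not analysed here.

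Livers of male F344 rats, an inbred strain, were profiled on Affymetrix RG-230 PM arrays in 4 groups of 4 samples, all 4 weeks old and kept for 3 weeks on their diet. Hydrogen-treated rats on the CDAA diet (hydrogen CDAA) received a diet without choline whose protein is replaced by amino acids, a nutritional model of fatty liver, with water holding 0.7 mM dissolved hydrogen and an atmosphere with 2% hydrogen. Control rats on the CDAA diet (control CDAA) received dehydrogenized water and air. Hydrogen-treated rats on the CE-2 chow (hydrogen normal) and control rats on that chow (control normal) completed the design. The CDAA diet (A06083101) is not the chow with choline taken out, so a difference between the diets is one between whole diets. Values are deposited log2 signals, errors of a difference are standard errors with n = 4 arrays a group, and a change given without a fold is a log2 difference. A gene was called at a limma adjusted p under 0.05 (Benjamini-Hochberg over all probe sets tested). No label says more of the replicates than that they are separate samples, so the p-values measure the spread between these samples, and 4 arrays a group limit the precision.

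All 10 hepatocyte markers measured were above the dim line, with a summed linear signal of 61100 to 64800 in hydrogen CDAA, 63700 to 65000 in control CDAA, 61300 to 62100 in hydrogen normal and 60100 to 62100 in control normal livers. The sum is led by probe sets near the top of the scale, such as Alb at 13.71 in control normal livers. Of the 10, 2 rose and 1 fell in each diet comparison. Apoa1 and Cyp2e1 rose in both, Hnf4a fell by 0.27 in control rats and Cps1 by 0.26 in hydrogen-treated rats. Array medians lay between 4.33 and 4.37. On the first principal component of all tested probe sets, array 4 of the control normal group stood at −13.44 and the other 3 of its group between −35.09 and −32.28. Without that array, 14 members were called in the control rats, all of them among the 16 called with it, and Slc25a15 and Slc25a46 were not.

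Most SLC25 carriers exchange one metabolite for another, which ties the citrate, amino acid, nucleotide and phosphate pools of the mitochondrial matrix to those of the cytosol. In liver they serve the export of citrate for fatty acid synthesis, the entry of acylcarnitines for fatty acid oxidation, the urea cycle, gluconeogenesis and the exchange of ATP for ADP. They are made in the cytosol and reach the inner membrane through the outer-membrane TOM complex and the TIM22 pathway with its small chaperones.

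The promoters of 6 members are shown first, those called in both diet comparisons with a log2 change over 0.5 in size in each, chosen after the values were seen. They are the 250 bases before the start listed by RefSeq (build GRCr8), 5′ to 3′ on the gene's strand. Of the 36 tested members, 31 matched a listed promoter. Capitals mark the searched motifs on either strand: the E-box CACGTG, the amino acid response element TGATGNAA, the NRF1 motif, the nuclear receptor half-site AAGGTCA, the CCAAT box and the GC box GGGCGG. None of these overlap each other in the windows shown. The windows of Slc25a13 and Slc25a28 overlap the annotated gene at its 5′ end. Most of the Slc25a21 window, with its CCAAT match, lies inside the annotated gene, whose 5′ end is at 80437937. That of Slc25a33 lies wholly inside the annotated gene, at an inner start. The windows are chr4:35328361-35328610 (minus strand) for Slc25a13, chr6:80437721-80437970 (minus) for Slc25a21, chr2:199449175-199449424 (plus) for Slc25a24, chr1:252491343-252491592 (minus) for Slc25a28, chr5:165502974-165503223 (minus) for Slc25a33 and chr16:52805271-52805520 (plus) for Slc25a4.
Slc25a13: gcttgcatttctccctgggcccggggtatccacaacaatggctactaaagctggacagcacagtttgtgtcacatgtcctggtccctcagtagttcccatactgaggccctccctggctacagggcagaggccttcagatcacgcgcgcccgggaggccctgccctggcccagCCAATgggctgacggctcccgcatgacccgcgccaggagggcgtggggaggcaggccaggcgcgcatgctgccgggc
Slc25a21: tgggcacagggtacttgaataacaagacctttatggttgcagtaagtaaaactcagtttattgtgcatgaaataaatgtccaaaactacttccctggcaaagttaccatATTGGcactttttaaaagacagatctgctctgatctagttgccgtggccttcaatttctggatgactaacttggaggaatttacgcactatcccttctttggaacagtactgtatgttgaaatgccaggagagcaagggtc
Slc25a24: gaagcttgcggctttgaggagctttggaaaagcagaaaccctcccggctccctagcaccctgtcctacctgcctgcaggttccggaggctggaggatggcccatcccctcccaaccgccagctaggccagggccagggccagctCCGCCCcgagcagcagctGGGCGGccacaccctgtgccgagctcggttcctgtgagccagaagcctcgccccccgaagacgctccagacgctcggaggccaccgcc
Slc25a28: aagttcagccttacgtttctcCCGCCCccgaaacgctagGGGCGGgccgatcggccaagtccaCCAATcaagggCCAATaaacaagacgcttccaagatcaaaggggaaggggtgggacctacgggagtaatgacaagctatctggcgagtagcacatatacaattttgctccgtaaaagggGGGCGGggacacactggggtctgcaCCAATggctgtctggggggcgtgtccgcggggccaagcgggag
Slc25a33: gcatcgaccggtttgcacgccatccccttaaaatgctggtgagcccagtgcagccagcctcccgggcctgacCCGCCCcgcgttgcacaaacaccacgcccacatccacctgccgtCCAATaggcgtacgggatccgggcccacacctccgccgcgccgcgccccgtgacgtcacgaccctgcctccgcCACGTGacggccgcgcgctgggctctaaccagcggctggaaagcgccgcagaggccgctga
Slc25a4: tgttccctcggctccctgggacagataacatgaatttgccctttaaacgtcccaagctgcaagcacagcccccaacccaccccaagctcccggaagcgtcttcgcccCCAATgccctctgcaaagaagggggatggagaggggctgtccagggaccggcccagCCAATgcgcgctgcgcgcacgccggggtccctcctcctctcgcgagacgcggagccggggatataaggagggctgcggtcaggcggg

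A CCAAT box was present in 5 of these 6 windows, in 17 of the 31 member promoters and in 34.3% of all 27457 listed promoters of the same length. The GC box was found in 3 of the 6, in 19 of the 31 and in 32.4% of all. CACGTG was found in 1 of the 6, that of Slc25a33, at 61 bases before the start, and in 2 of the 31, against 5.79% of all promoters. TGATGNAA, the NRF1 motif and AAGGTCA were in 0 of the 31, against 3.27%, 4.17% and 3.77% of all promoters. A match is a string of letters and was not tested for binding.

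The first question was how the CDAA diet changed carrier transcripts in control rats. Of the 36 tested members, 9 rose and 7 fell, 16 in all. Among all 11433 genes tested, 27.3% rose and 13.3% fell (40.6% in either direction), against 25.0% and 19.4% of the members (44.4% in either direction), so the members' share lay near the background. The members' median log2 change was −0.0475, against 0.04 over all genes. In hydrogen-treated rats, 10 members rose and 8 fell on the CDAA diet, 18 in all. Here 32.1% of all genes rose and 17.3% fell (49.5% in either direction), against 27.8% and 22.2% of the members (50.0%). The members' median was −0.035, against 0.0525 over all genes. Called in both comparisons were 12 members, all with the same sign, which is 12 of 16 and 12 of 18. The groups did not overlap for 12 members in control rats and 15 in hydrogen-treated rats, against 38.0% and 43.8% of all genes. A member called in one comparison and not in the other is not shown to differ between them, because the interaction called no member. In whole liver, fewer cells of a type and less RNA per cell cannot be told apart.

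**Figure D1:**
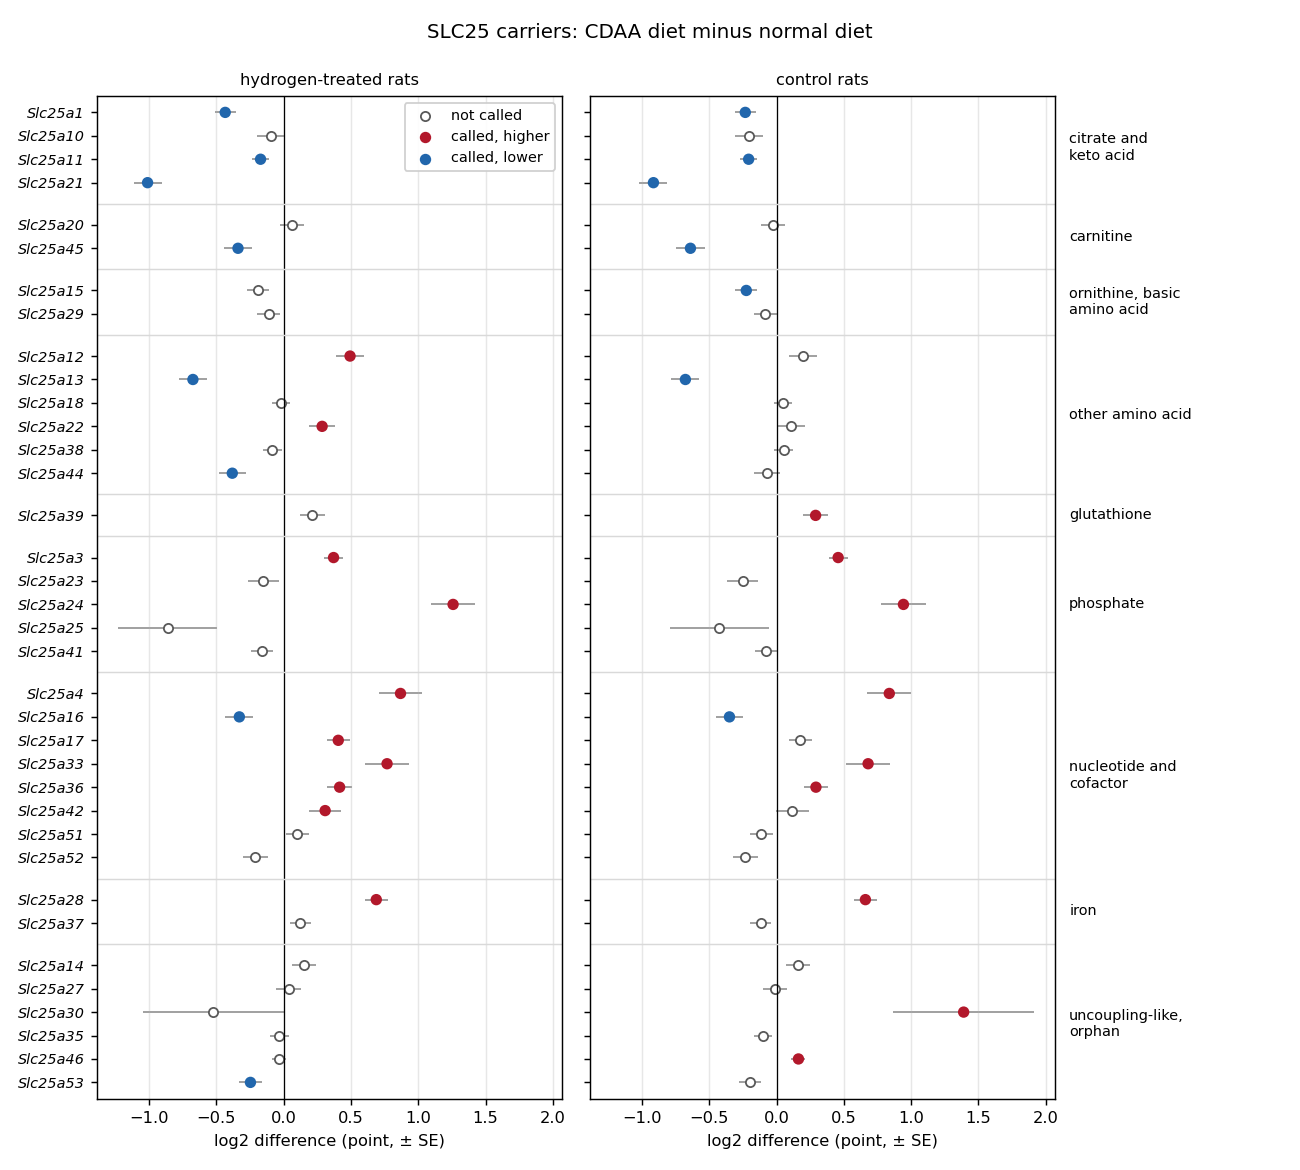
Log2 change of each tested SLC25 member on the CDAA diet against the normal diet (x axis) in hydrogen-treated rats (left) and in control rats (right), ordered by substrate class (y axis), with the standard error of the limma fit (whiskers) and n = 4 arrays a group. Filled points were called (red higher, blue lower). Slc25a21 lies at −1.01 and −0.92 and Slc25a24 at 1.26 and 0.94 in hydrogen-treated and control rats, and the whiskers of Slc25a30 and Slc25a25 are the widest.

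Among the carriers of citrate and keto acids, 3 of 4 fell in both comparisons and none rose. Slc25a21, which carries the 2-oxoadipate and 2-oxoglutarate of lysine and tryptophan breakdown, had log2 signals of 4.25, 4.51, 4.45 and 4.62 in control CDAA livers, against 5.61, 5.35, 5.17 and 5.36 in control normal livers. The hydrogen-treated rats had 4.70, 4.33, 4.44 and 4.36 on the CDAA diet, against 5.46, 5.40, 5.38 and 5.64 on the normal diet. Every CDAA array lay below every normal-diet array, by 1.89-fold on average in control rats (−0.92 ± 0.104, limma adjusted p = 1.43e-05) and 2.02-fold in hydrogen-treated rats (−1.01 ± 0.104, adjusted p = 2.9e-06). Among the probe sets that represent the members, this was the smallest adjusted p in both comparisons. The second probe set of Slc25a13, given below, had a smaller one in each.

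Slc25a1 exports citrate from the matrix, the carbon source of cytosolic fatty acid and sterol synthesis. Its log2 signals were 9.08, 9.03, 8.96 and 9.04 in control CDAA livers, against 9.35, 9.25, 9.28 and 9.16 in control normal livers. They were 9.14, 8.98, 8.90 and 8.91 in hydrogen CDAA livers, against 9.26, 9.48, 9.32 and 9.61 in hydrogen normal livers. The diets did not overlap in either pair, and the fall was 1.17-fold in control rats (adjusted p = 0.0264) and 1.35-fold in hydrogen-treated rats (adjusted p = 0.000302). The call in control rats was lost without array 3 of the control CDAA group or array 1, 2 or 3 of the control normal group (adjusted p 0.0501 to 0.0798). Slc25a11, the 2-oxoglutarate/malate carrier of the malate-aspartate shuttle, fell by 0.21 in control rats (adjusted p = 0.0199) and by 0.17 in hydrogen-treated rats (adjusted p = 0.0399). The call in control rats was lost without array 1, 3 or 4 of the control CDAA group or array 1 or 3 of the control normal group (adjusted p 0.0502 to 0.0601). That in hydrogen-treated rats was lost without array 2, 3 or 4 of the hydrogen CDAA group or array 1, 2, 3 or 4 of the hydrogen normal group (adjusted p 0.0558 to 0.101), and with arrays centred on their medians (adjusted p = 0.0571). Slc25a10, the dicarboxylate carrier, did not pass the test, at −0.21 (95% interval −0.426 to 0.0115) and −0.09 (95% interval −0.311 to 0.126).

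Enzymes that make or use citrate were read beside these carriers. Of 8 tested, 2 rose and 2 fell in control rats (median 0.14), and 2 rose and 4 fell in hydrogen-treated rats (median −0.13). Counts of this and each later list stand beside the shares of all genes, 27.3% higher and 13.3% lower in control rats. In hydrogen-treated rats those shares were 32.1% and 17.3%. Fasn, fatty acid synthase, fell by 1.23 on the CDAA diet in hydrogen-treated rats (adjusted p = 0.000392), and Acly, which splits citrate in the cytosol, fell by 1.36 (adjusted p = 0.000634). In control rats neither passed the test, at 0.33 ± 0.224 for Fasn and 0.02 ± 0.262 for Acly. The difference of the diet effect between hydrogen-treated and control rats did not pass either (interaction adjusted p = 0.179 for Fasn and 0.308 for Acly). Idh2, mitochondrial isocitrate dehydrogenase, and Cs, citrate synthase, rose in both comparisons, by 0.41 and 0.26 in control rats.

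Of the 2 carriers of the carnitine class, Slc25a45 fell in both comparisons and Slc25a20 passed in neither. Slc25a45, linked in human cells to mitochondrial uptake of methylated amino acids, had log2 signals of 4.78, 4.79, 4.84 and 4.72 in control CDAA livers, against 5.72, 5.32, 5.56 and 5.09 in control normal livers. With hydrogen, the CDAA livers had 4.88, 5.08, 4.75 and 4.92, against 5.23, 5.34, 5.17 and 5.25 in the normal-diet livers. All CDAA arrays were below all normal-diet arrays of the same pair, by 1.56-fold in control rats (adjusted p = 0.000246) and 1.27-fold in hydrogen-treated rats (adjusted p = 0.0157, and 0.0527 without array 3 of the hydrogen CDAA group). Slc25a20 is the carnitine/acylcarnitine carrier of long-chain fatty acid oxidation. Its log2 signals were 8.70, 8.71, 8.49 and 8.42 in control CDAA livers, against 8.62, 8.54, 8.76 and 8.50 in control normal livers, and they overlapped. The difference was −0.03 (95% interval −0.211 to 0.161) in control rats and 0.06 (95% interval −0.126 to 0.246) in hydrogen-treated rats.

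The other genes of the carnitine shuttle were read beside these carriers. Of 9 tested, 1 rose and 4 fell in control rats (median 0.01), and 5 rose and 2 fell in hydrogen-treated rats (median 0.44). Cpt1b, a carnitine palmitoyltransferase of the outer membrane best known from muscle, rose by 1.24 in control rats (adjusted p = 9.41e-05) and by 2.45 in hydrogen-treated rats (adjusted p = 2.73e-07). Slc22a5, the plasma membrane carnitine transporter, rose by 1.34 in hydrogen-treated rats (adjusted p = 9.36e-06) and was at 0.24 ± 0.158 in control rats. In hydrogen-treated rats Cpt1a rose by 0.79 (adjusted p = 0.000613) and Crat by 0.78 (adjusted p = 0.000868), and neither passed in control rats. Bbox1, which completes carnitine synthesis, fell in both, by 0.51 in control rats and 0.63 in hydrogen-treated rats.

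Among the carriers of ornithine and basic amino acids, Slc25a15 fell in control rats and Slc25a29, a carrier of arginine and lysine, passed in neither comparison. Slc25a15 exchanges ornithine for citrulline in the urea cycle. It had log2 signals of 8.99, 8.66, 8.71 and 8.96 in control CDAA livers, against 9.09, 9.07, 9.05 and 9.01 in control normal livers, with no overlap. In hydrogen CDAA livers the signals were 8.78, 8.74, 8.85 and 8.87, against 8.80, 9.12, 8.98 and 9.10 in hydrogen normal livers, and these overlapped. The change was −0.23 ± 0.0819 in control rats (adjusted p = 0.0423). That call was lost without array 2 or 3 of the control CDAA group, array 3 of the hydrogen normal group or array 1, 2, 3 or 4 of the control normal group (adjusted p 0.0522 to 0.129), with arrays centred on their medians (adjusted p = 0.0544) and with a replicate block (adjusted p = 0.0559). In hydrogen-treated rats it was −0.19 (adjusted p = 0.0694). Its second probe set gave −0.34 in control rats (adjusted p = 0.0742) and −0.61 in hydrogen-treated rats (adjusted p = 0.0026), so each set was called in one of the comparisons. Slc25a29 was at −0.08 (95% interval −0.269 to 0.104) and −0.11 (95% interval −0.299 to 0.0742).

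Of 10 tested genes of the urea cycle and ornithine metabolism, 3 rose and 5 fell in control rats (median −0.33), and 3 rose and 7 fell in hydrogen-treated rats (median −0.33). Oat, ornithine aminotransferase, fell by 3.31 in control rats (adjusted p = 1.01e-05) and by 4.00 in hydrogen-treated rats (adjusted p = 1.08e-06). Gls2 fell by 1.28 in control rats (adjusted p = 3.34e-05) and by 1.33 in hydrogen-treated rats (adjusted p = 1.31e-05). Otc, the matrix enzyme that turns ornithine into citrulline, fell by 0.48 in control rats and 0.46 in hydrogen-treated rats. Odc1, which starts polyamine synthesis from ornithine, rose by 1.04 and 0.99 in those comparisons.

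Among the 6 other amino acid carriers, 1 fell in control rats, and 2 rose and 2 fell in hydrogen-treated rats. Slc25a13, citrin, is the aspartate/glutamate carrier of liver and feeds both the urea cycle and the malate-aspartate shuttle. It had log2 signals of 10.37, 10.74, 10.43 and 10.62 in control CDAA livers, against 11.26, 11.27, 11.20 and 11.14 in control normal livers. The signals were 10.66, 10.58, 10.15 and 10.68 in hydrogen CDAA livers, against 11.27, 11.12, 11.23 and 11.15 in hydrogen normal livers. All 8 CDAA arrays lay below all 8 normal-diet arrays, by 1.60-fold in both comparisons (adjusted p = 0.000144 in control rats and 9.71e-05 in hydrogen-treated rats). Its second probe set gave larger falls, of 1.07 in control rats (adjusted p = 1.11e-05) and 1.20 in hydrogen-treated rats (adjusted p = 2.02e-06).

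Slc25a12, aralar, is the paralog of citrin in excitable tissues. It rose in hydrogen-treated rats, with 6.39, 6.12, 6.21 and 5.97 in hydrogen CDAA livers, against 5.73, 5.68, 5.51 and 5.80 in hydrogen normal livers. These did not overlap (1.41-fold, adjusted p = 0.00133). In control rats it was at 0.20 ± 0.104 (adjusted p = 0.156), and the difference of the diet effects did not pass (interaction 0.30 ± 0.148, adjusted p = 0.567). Slc25a22, a glutamate carrier, rose by 0.29 in hydrogen-treated rats (adjusted p = 0.027). The call was lost without array 2, 3 or 4 of the hydrogen CDAA group or array 1 or 2 of the hydrogen normal group (adjusted p 0.053 to 0.0943), with quantile normalization applied again (adjusted p = 0.106) and with array weights (adjusted p = 0.0532). Slc25a44, a carrier of branched-chain amino acids, fell by 0.38 in hydrogen-treated rats (adjusted p = 0.00517) and was at −0.07 ± 0.0984 in control rats. A second probe set of Slc25a44 fell in both comparisons, by 0.43 in control rats (adjusted p = 0.00204) and 0.78 in hydrogen-treated rats (adjusted p = 9.73e-06). Slc25a18, another glutamate carrier, and Slc25a38, a glycine carrier of heme synthesis, passed in neither.

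The 4 enzymes of the malate-aspartate shuttle split, with 1 higher and 2 lower in both comparisons (median −0.09 in control rats and −0.20 in hydrogen-treated rats). Got1, the cytosolic aspartate aminotransferase, fell by 0.69 and 0.61, and Got2, its mitochondrial counterpart, by 0.23 and 0.26. Mdh2, mitochondrial malate dehydrogenase, rose by 0.38 and 0.29, each pair given for control rats and then hydrogen-treated rats.

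The single glutathione carrier measured was Slc25a39, known from human and mouse cells. Its log2 signals were 9.42, 9.66, 9.38 and 9.75 in control CDAA livers, against 9.30, 9.20, 9.21 and 9.34 in control normal livers, with no overlap. The hydrogen-treated rats had 9.62, 9.50, 9.74 and 9.30 on the CDAA diet, against 9.29, 9.29, 9.34 and 9.40 on the normal diet, and these overlapped. The rise was 1.22-fold in control rats (adjusted p = 0.0227 by this probe set), and the change was 0.21 in hydrogen-treated rats (adjusted p = 0.0758). The call was lost without array 2 or 4 of the control CDAA group or array 2 or 3 of the control normal group (adjusted p 0.0578 to 0.0799), and with the mean of the gene's probe sets (adjusted p = 0.159). Its second probe set disagreed in direction, at −0.08 in control rats (adjusted p = 0.307) and −0.22 in hydrogen-treated rats (adjusted p = 0.00794), so no direction is given for the gene. Of 6 tested genes of methyl donor and glutathione synthesis, 3 rose and 2 fell in control rats (median 0.39), and 3 rose and 1 fell in hydrogen-treated rats (median 0.50). Mat2a, a methionine adenosyltransferase that makes S-adenosylmethionine, rose by 2.01 in control rats, and Gss and Gclc of glutathione synthesis rose by 0.95 and 0.75. Gnmt, which consumes S-adenosylmethionine, fell by 1.53.

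**Figure D2:**
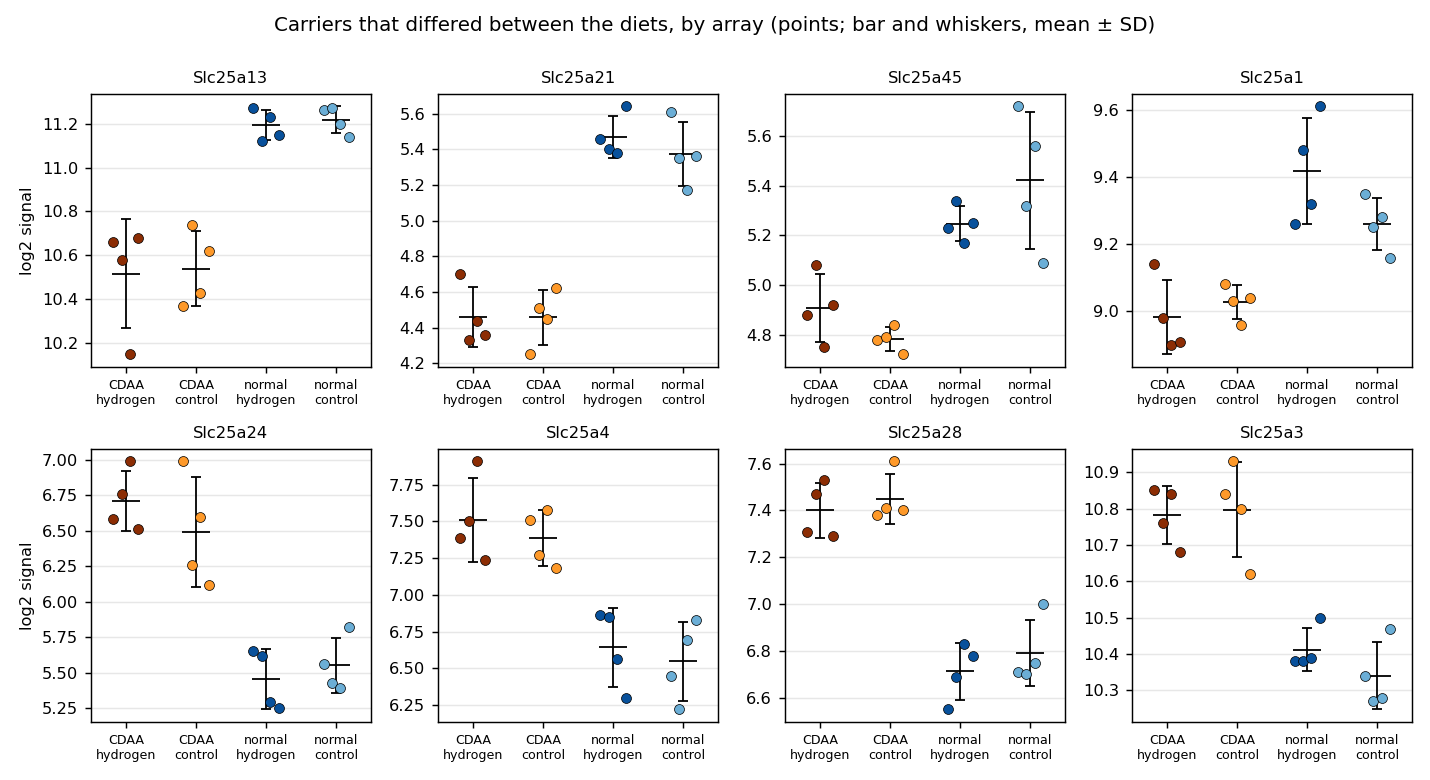
Log2 signal (y axis) on each of the 4 arrays of a group (points) with the group mean (bar) and SD (whiskers), for 8 members called in both diet comparisons, with the hydrogen CDAA, control CDAA, hydrogen normal and control normal groups in that order and a separate y scale for each gene. The CDAA points of Slc25a21 and Slc25a13 lie below all normal-diet points, and those of Slc25a24, Slc25a4 and Slc25a28 lie above them.

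Of the 5 phosphate carriers, 2 rose in both comparisons and none fell. Slc25a24 is an ATP-Mg/phosphate carrier regulated by calcium that sets the adenine nucleotide content of the matrix. It had log2 signals of 6.99, 6.26, 6.60 and 6.12 in control CDAA livers, against 5.56, 5.43, 5.39 and 5.82 in control normal livers. With hydrogen, the CDAA livers had 6.58, 6.76, 6.99 and 6.51, against 5.65, 5.62, 5.29 and 5.25 in the normal-diet livers. All 8 CDAA arrays exceeded all 8 normal-diet arrays, by 1.92-fold in control rats (0.94 ± 0.166, adjusted p = 0.000435) and 2.39-fold in hydrogen-treated rats (1.26 ± 0.166, adjusted p = 2.52e-05). Slc25a3, the phosphate carrier that supplies ATP synthase, had 10.84, 10.93, 10.80 and 10.62 in control CDAA livers, against 10.34, 10.27, 10.28 and 10.47 in control normal livers. In hydrogen-treated rats it had 10.85, 10.76, 10.84 and 10.68 on the CDAA diet, against 10.38, 10.38, 10.39 and 10.50 on the normal diet. The diets did not overlap, and the rise was 1.37-fold in control rats (adjusted p = 0.000132) and 1.29-fold in hydrogen-treated rats (adjusted p = 0.000517).

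The paralogs of Slc25a24 passed in neither comparison. Slc25a23 was at −0.25 (95% interval −0.496 to −0.00879) in control rats and −0.15 (95% interval −0.396 to 0.0912) in hydrogen-treated rats. Slc25a25 was at −0.43 (95% interval −1.2 to 0.353) and −0.86 (95% interval −1.64 to −0.085), with a wide spread between arrays, and it was called lower in hydrogen-treated rats with a replicate block, with quantile normalization applied again and without some single arrays. Slc25a41, dim on most arrays, also passed in neither.

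Among the 8 carriers of nucleotides and cofactors, 3 rose and 1 fell in control rats, and 5 rose and 1 fell in hydrogen-treated rats. Slc25a4 is the ADP/ATP carrier best known from heart and muscle. It had log2 signals of 7.51, 7.27, 7.58 and 7.18 in control CDAA livers, against 6.45, 6.22, 6.69 and 6.83 in control normal livers. In hydrogen CDAA livers they were 7.39, 7.50, 7.91 and 7.24, against 6.86, 6.85, 6.56 and 6.30 in hydrogen normal livers. All CDAA arrays exceeded all normal-diet arrays, by 1.79-fold in control rats (adjusted p = 0.000857) and 1.82-fold in hydrogen-treated rats (adjusted p = 0.000482). Its paralogs Slc25a5 and Slc25a6 share a probe set that carries both symbols, and no value is given for either.

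Slc25a33 and Slc25a36 carry pyrimidine nucleotides, as known from the human proteins. Slc25a33 had 5.39, 5.79, 5.85 and 6.17 in control CDAA livers, against 4.99, 4.89, 5.02 and 5.58 in control normal livers, and array 4 of the control normal group lay above the lowest CDAA array. The hydrogen-treated rats had 6.03, 5.96, 5.97 and 5.64 on the CDAA diet, against 4.97, 5.16, 5.02 and 5.38 on the normal diet, with no overlap. It rose 1.60-fold in control rats (adjusted p = 0.00388) and 1.70-fold in hydrogen-treated rats (adjusted p = 0.00129). Slc25a36 rose 1.22-fold in control rats (adjusted p = 0.0203) and 1.33-fold in hydrogen-treated rats (adjusted p = 0.00179), with no overlap in either pair. Its call in control rats was lost without array 1 or 3 of the control CDAA group or array 2 of the control normal group (adjusted p 0.0542 to 0.0721), and with quantile normalization applied again (adjusted p = 0.115).

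Slc25a16, whose substrate is not settled and which has been linked to coenzyme A, fell in both comparisons, by 1.27-fold (adjusted p = 0.0146) in control rats and 1.26-fold (adjusted p = 0.0164) in hydrogen-treated rats. These calls were lost without array 1 or 3 of the control CDAA group (adjusted p 0.0506 to 0.0545) in control rats and without array 3 of the hydrogen CDAA group (adjusted p = 0.0577) in hydrogen-treated rats. Slc25a17, which serves peroxisomes and carries cofactors there, rose 1.32-fold in hydrogen-treated rats (adjusted p = 0.00119) and was at 0.18 ± 0.0847 in control rats. Slc25a42, a coenzyme A carrier, rose 1.24-fold in hydrogen-treated rats (adjusted p = 0.0495). It was lost without array 1, 2 or 3 of the hydrogen CDAA group, array 1 or 4 of the control CDAA group, array 1, 2, 3 or 4 of the hydrogen normal group or array 1, 3 or 4 of the control normal group (adjusted p 0.0533 to 0.159). It was also lost with quantile normalization applied again, with no filter and with an intensity trend and robust variances (adjusted p 0.277, 0.0576 and 0.0501). Slc25a51 and its close paralog Slc25a52, carriers of NAD in human cells, passed in neither comparison. Their probe signals may be shared and are uncertain. Slc25a52 was at −0.23 (adjusted p = 0.0676) in control rats and −0.21 (adjusted p = 0.082) in hydrogen-treated rats, and a replicate block called it lower in both.

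Of the 2 mitoferrins, which bring iron into the matrix, Slc25a28 rose in both comparisons. It is the mitoferrin of tissues other than the red cell lineage. It had log2 signals of 7.38, 7.41, 7.61 and 7.40 in control CDAA livers, against 6.71, 6.70, 6.75 and 7.00 in control normal livers. With hydrogen, the CDAA livers had 7.31, 7.47, 7.53 and 7.29, against 6.55, 6.69, 6.83 and 6.78 in the normal-diet livers. The diets did not overlap in either pair, and the rise was 1.58-fold in control rats (0.66 ± 0.0851, adjusted p = 3.57e-05) and 1.61-fold in hydrogen-treated rats (0.69 ± 0.0851, adjusted p = 1.4e-05). Slc25a37, the mitoferrin of red cell precursors, was at −0.12 (95% interval −0.283 to 0.0482) in control rats and 0.12 (95% interval −0.0432 to 0.288) in hydrogen-treated rats. The summed signal of 5 erythroid markers was 68.5 to 89.0 in hydrogen CDAA, 68.6 to 72.2 in control CDAA, 83.5 to 90.0 in hydrogen normal and 81.5 to 99.1 in control normal livers. These sums are low, not far above what 5 probe sets at the dim line would give. Of 4 tested, 2 fell in control rats (median −0.36) and 1 in hydrogen-treated rats (median −0.22), and none rose.

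The class of uncoupling-like and orphan carriers held 6 members, of which 2 rose in control rats and 1 fell in hydrogen-treated rats. Slc25a30, a relative of the uncoupling proteins known from kidney, had log2 signals of 10.77, 9.80, 10.64 and 10.85 in control CDAA livers, against 7.74, 8.82, 10.32 and 9.62 in control normal livers. In hydrogen CDAA livers they were 10.23, 8.45, 9.91 and 11.20, against 10.47, 11.00, 10.28 and 10.13 in hydrogen normal livers. The groups overlapped in both pairs. It rose 2.62-fold in control rats (1.39 ± 0.523, adjusted p = 0.0488). This call was lost without array 1 or 3 of the hydrogen CDAA group, array 1, 3 or 4 of the control CDAA group, array 1, 2, 3 or 4 of the hydrogen normal group or array 1 or 2 of the control normal group (adjusted p 0.055 to 0.171). It was also lost with no filter, with the mean of the gene's probe sets and with an intensity trend and robust variances (adjusted p 0.0645, 0.0765 and 0.0859). In hydrogen-treated rats it was at −0.52 ± 0.523 (adjusted p = 0.431). Its second probe set passed in neither comparison (1.23, adjusted p = 0.117, and −1.01, adjusted p = 0.171).

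Slc25a46, an outer-membrane member that acts in membrane dynamics, rose 1.12-fold in control rats (adjusted p = 0.0227) and was at −0.04 ± 0.0519 in hydrogen-treated rats. Its call was lost without array 2 or 4 of the control CDAA group or array 4 of the control normal group (adjusted p 0.0525 to 0.0742). It was also lost with quantile normalization applied again (adjusted p = 0.141) and with the mean of the gene's probe sets (adjusted p = 0.357). A second probe set of Slc25a46 passed in neither comparison, at 0.03 in control rats (adjusted p = 0.886) and 0.10 in hydrogen-treated rats (adjusted p = 0.48). Slc25a53, an orphan, fell 1.19-fold in hydrogen-treated rats (adjusted p = 0.0234). Its means, 3.785 in hydrogen CDAA and 4.03 in hydrogen normal livers, lay near the dim line of 3.68. The call was lost without array 3 of the hydrogen CDAA group or array 1 or 3 of the hydrogen normal group (adjusted p 0.0515 to 0.0888). It was also lost with quantile normalization applied again (adjusted p = 0.0679). With the filter at the 50th percentile (4.35) Slc25a53 was too dim to be tested. Slc25a14, Slc25a27 and Slc25a35 passed in neither comparison. Of the uncoupling proteins named outside the rule, Ucp2 rose by 0.28 in control rats (adjusted p = 0.0233), and Ucp3 fell by 0.21 in control rats and 0.20 in hydrogen-treated rats.

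The members differed in how far arrays of the same group lay apart. The pooled SD within groups had a median of 0.135 over the members, against 0.117 over all genes. Slc25a30 had a pooled SD of 0.852, and 18 of the 11433 genes (0.157%) had a larger one. Slc25a25 had 0.596, with 66 genes (0.577%) above it. Both probe sets of Slc25a30 had the same lowest and the same highest array in all 4 groups, so the spread was shared by both. Slc25a25 had 7.61, 7.67, 7.78 and 8.35 in hydrogen CDAA, 7.48, 6.99, 7.98 and 9.16 in control CDAA, 8.07, 8.89, 8.88 and 9.02 in hydrogen normal and 7.76, 8.10, 8.55 and 8.90 in control normal livers, and all groups overlapped another.

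**Figure D3:**
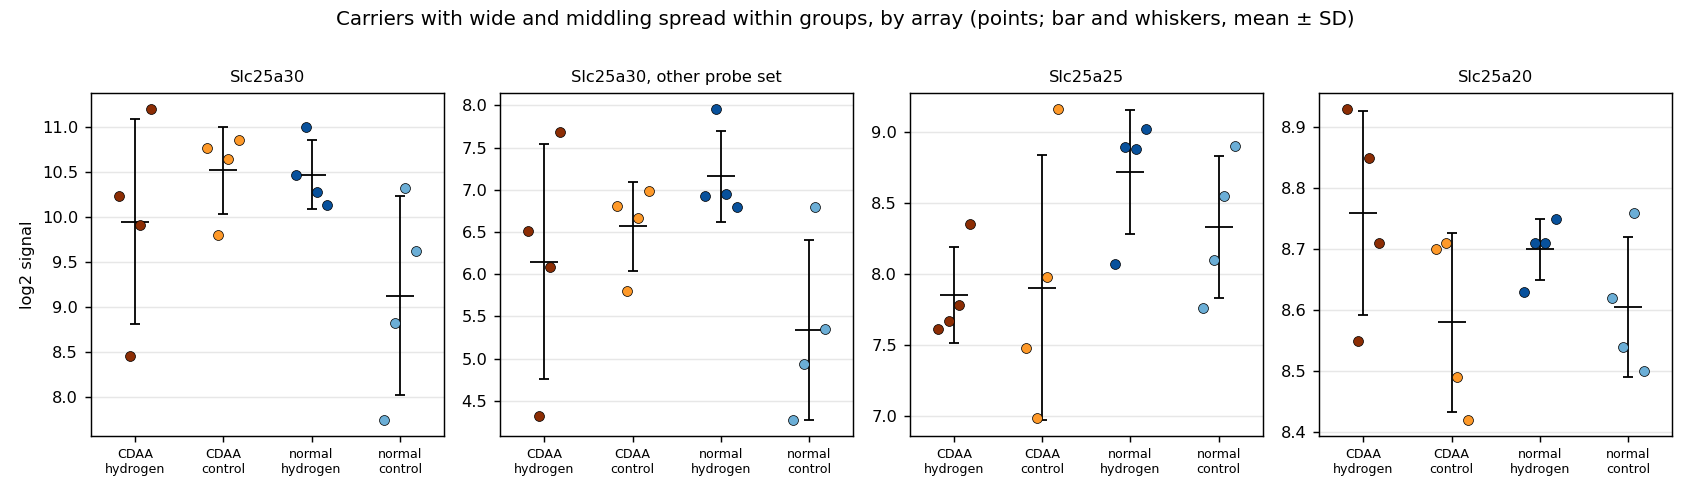
Log2 signal (y axis) on each array (points) with the group mean (bar) and SD (whiskers) in the hydrogen CDAA, control CDAA, hydrogen normal and control normal groups, for the members of widest spread, Slc25a30 (both probe sets) and Slc25a25, and for Slc25a20, whose pooled SD of 0.128 is near the members' median, each on its own y scale. The first probe set of Slc25a30 lay at 7.74 on its lowest array and 11.20 on its highest.

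The second question was whether hydrogen changed the carriers. On the normal diet, limma called 0 of 36 members for hydrogen against control, against 0.00875% of all genes (1 of 11433). At an unadjusted p under 0.05 there was 1 member, Slc25a30, with log2 signals of 10.47, 11.00, 10.28 and 10.13 in hydrogen normal livers, against 7.74, 8.82, 10.32 and 9.62 in control normal livers (1.35 ± 0.523, adjusted p = 0.596). The groups overlapped. The members' median was 0.03, against −0.005 over all genes. On the CDAA diet 0 members were called, against 0.376% of all genes (43 of 11433), and 6 had an unadjusted p under 0.05. The share of all genes under that unadjusted p was not counted, so such counts are not read as a result about the members. Limma with an intensity trend and robust variances also called 0 in both comparisons. The members' median on that diet was 0.0262, against 0.0075 over all genes. Leaving out array 2 of the control CDAA group gave 2 calls on the CDAA diet, Slc25a17 and Slc25a42, both higher in hydrogen-treated rats.

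Slc25a46 had the smallest adjusted p on the CDAA diet. Its log2 signals were 8.21, 8.25, 8.30 and 8.26 in hydrogen CDAA livers, against 8.39, 8.57, 8.42 and 8.49 in control CDAA livers. The groups did not overlap, as for 3.76% of all genes, yet the difference of −0.21 ± 0.0519 did not pass (adjusted p = 0.113). The other 5 were Slc25a10 at 0.31 (adjusted p = 0.247), Slc25a17 at 0.25 (0.252), Slc25a36 at 0.23 (0.332), Slc25a42 at 0.40 (0.215) and Slc25a44 at −0.28 (0.268). For the 34 members other than Slc25a30 and Slc25a25, the 95% intervals of the hydrogen difference lay between −0.45 and 0.47 on the normal diet and between −0.49 and 0.66 on the CDAA diet.

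**Figure D4:**
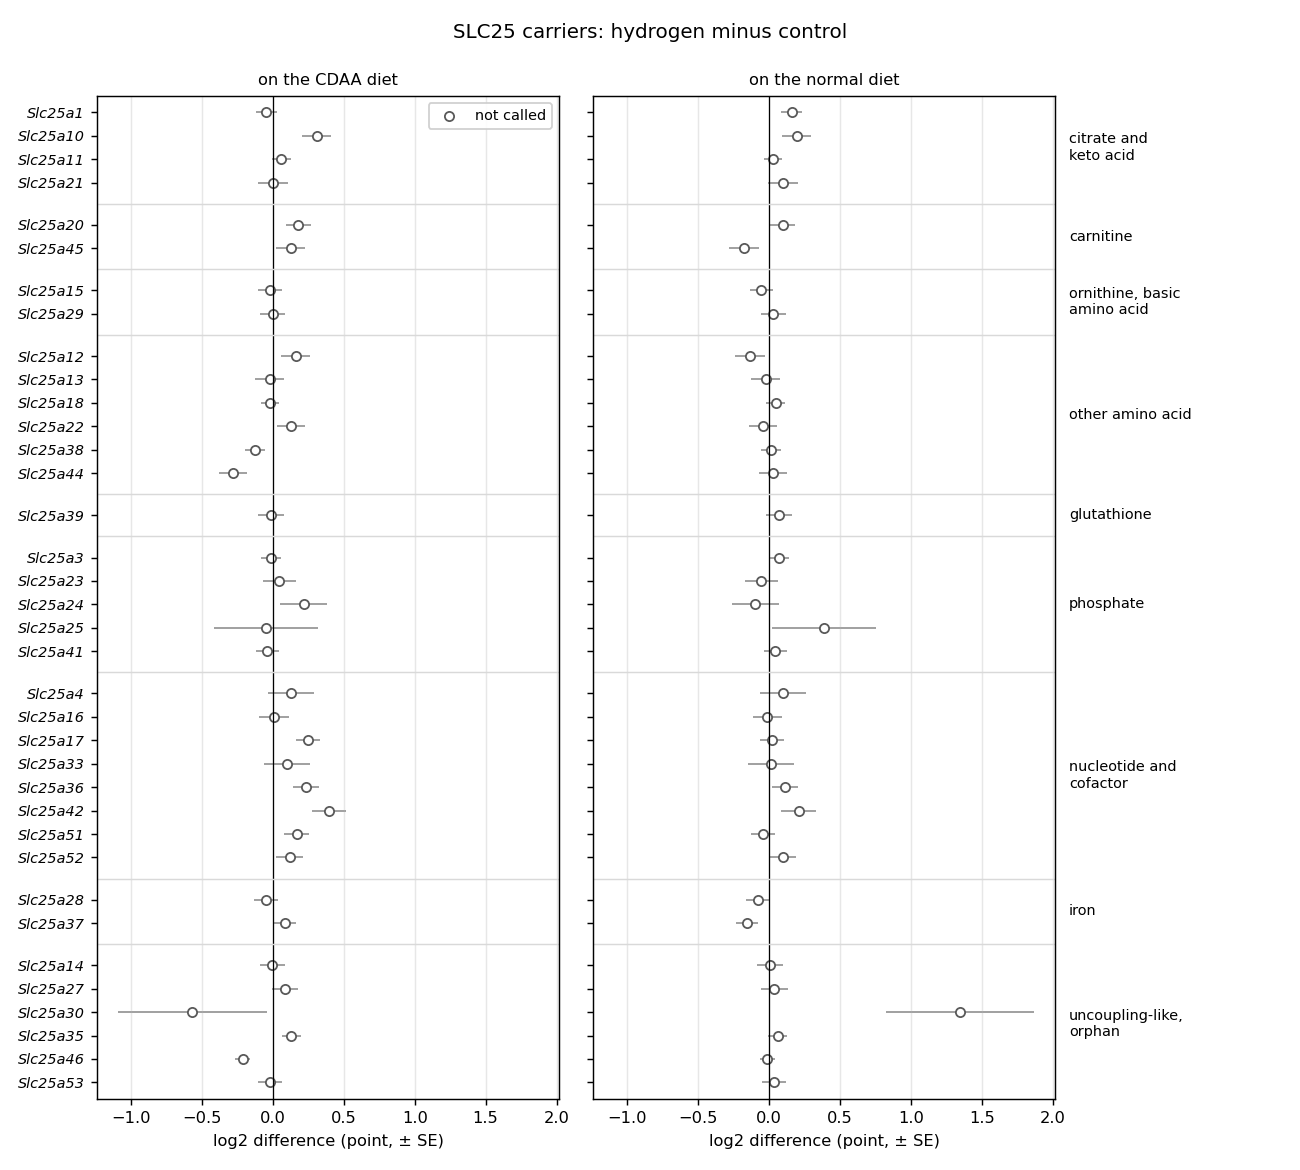
Log2 change of each tested SLC25 member in hydrogen-treated against control rats (x axis, the same scale in both panels) on the CDAA diet (left) and on the normal diet (right), ordered by substrate class (y axis), with the standard error of the limma fit (whiskers) and n = 4 arrays a group. No member was called, and Slc25a30 and Slc25a25 had the widest whiskers.

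In the carnitine shuttle outside the family, Cpt1b rose by 0.99 in hydrogen CDAA against control CDAA livers (adjusted p = 0.03). In the same comparison Crot, a peroxisomal carnitine acyltransferase, rose by 0.54 (adjusted p = 0.0132), and Fasn fell by 1.22 (adjusted p = 0.03). Mean Crot signals were 10.66 in hydrogen CDAA, 10.12 in control CDAA, 10.60 in hydrogen normal and 10.57 in control normal livers. On the CDAA diet Crot fell by 0.45 in control rats (adjusted p = 0.000783). Slc25a20, the carrier that works beside the carnitine acyltransferases, was at 0.18 (95% interval −0.00551 to 0.366, adjusted p = 0.447), and Slc25a1, which exports citrate, at −0.05 (95% interval −0.207 to 0.117, adjusted p = 0.871).

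The interaction, the hydrogen effect on the CDAA diet minus that on the normal diet, called 0 members by limma, and 0% of all genes, and 0 with an intensity trend and robust variances. At an unadjusted p under 0.05 there were 4 members, again without a count over all genes. Slc25a30 was at −1.91 ± 0.74 (adjusted p = 0.476) and Slc25a44 at −0.31 ± 0.139 (adjusted p = 0.526). Slc25a37 was at 0.24 (adjusted p = 0.535) and Slc25a46 at −0.20 (adjusted p = 0.464).

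The machinery that imports and surrounds the carriers was read last. Of 12 tested genes of carrier import, 8 rose and none fell in each diet comparison, not all of them the same genes. The median was 0.32 in control rats and 0.33 in hydrogen-treated rats. Timm8a1, a small chaperone of the intermembrane space, rose by 0.78 in control rats and 0.88 in hydrogen-treated rats. The outer-membrane receptors Tomm20 and Tomm70 rose by 0.58 and 0.50 in control rats, and the pore Tomm40 by 0.52. Of 13 other mitochondrial transport proteins, 7 rose and 1 fell in control rats (median 0.16), and 8 rose and 2 fell in hydrogen-treated rats (median 0.23). Vdac2, an outer-membrane channel, rose by 0.57 in control rats and 0.54 in hydrogen-treated rats. Of 23 respiratory chain and ATP synthase genes, 7 rose and 1 fell in control rats (median 0.06), and 3 rose and 3 fell in hydrogen-treated rats (median −0.01). Over all genes, 27.3% rose and 13.3% fell in control rats, and 32.1% rose and 17.3% fell in hydrogen-treated rats. Beside those shares the respiratory counts are not read as a rise. Cox4i1, a subunit of cytochrome c oxidase, rose by 0.36 in control rats and 0.21 in hydrogen-treated rats. For none of the carrier import, transport and respiratory lists did hydrogen call a gene on either diet.

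Some markers of other liver cells moved with the diet. The summed signal of 7 macrophage markers was 2770 to 5010 in hydrogen CDAA, 2610 to 3410 in control CDAA, 1430 to 1760 in hydrogen normal and 1230 to 2150 in control normal livers, and 5 rose and 1 fell in control rats. For 8 stellate cell and fibroblast markers it was 3580 to 4220 in hydrogen CDAA, 3260 to 4070 in control CDAA, 2020 to 2200 in hydrogen normal and 1820 to 2880 in control normal livers, and 5 rose in control rats. For 6 bile duct markers it was 410 to 555 in hydrogen CDAA, 287 to 530 in control CDAA, 213 to 231 in hydrogen normal and 213 to 242 in control normal livers, with 3 of 5 tested higher in control rats and Sox9 below the dim line on all arrays. For 6 adipocyte markers it was 585 to 840 in hydrogen CDAA, 472 to 692 in control CDAA, 206 to 229 in hydrogen normal and 158 to 293 in control normal livers, and 2 of 5 tested rose in control rats. For 5 lymphocyte markers it was 93 to 108 in hydrogen CDAA, 98.1 to 102 in control CDAA, 105 to 113 in hydrogen normal and 104 to 119 in control normal livers, with 1 of 4 tested higher and 1 lower in control rats and Cd3d below the line on all arrays. Of 4 muscle markers measured, 3 (Acta1, Ckm and Mb) were below the line on all arrays, and 1 was tested. Of 7 brain and testis markers measured, 2 (Tnp1 and Odf1) were below it on all arrays, and 5 were tested. No tested gene of either list was called. A linear sum gives bright probe sets the most weight. Median changes of the tested macrophage, stellate, bile duct and adipocyte markers were 0.618, 0.405, 0.595 and 0.0625 in control rats. In hydrogen-treated rats they were 1.19, 0.652, 0.902 and 0.265. The macrophage, stellate, bile duct and adipocyte sums were higher on the CDAA diet, as were Slc25a24, Slc25a4 and Slc25a28. The part of these cells in the members' diet changes was not tested.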

How the data were processed

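Total RNA from 16 rat livers was hybridised to single-colour Affymetrix arrays. Per the submitters' processing notes, the authors summarised probe sets with RMA in Affymetrix Expression Console (no version is stated for either) and deposited log2 values with 2 decimals. Each probe set was named from the platform annotation, which lists 1 symbol for 19069 probe sets, several for 572 and none here for 11498. All 37 members' symbols matched the current RefSeq symbol.

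From these values 97 control probe sets were left out, and a probe set was tested when it exceeded 3.68, the 30th percentile of the other values, on at least 4 arrays (22634 of 31139). A single limma model (version 3.58.1, R 4.3.3) with a mean per group and no covariate was fitted to all tested probe sets, with Benjamini-Hochberg adjustment within each contrast and a call at an adjusted p under 0.05. Background shares count genes, each by its probe set of highest mean. Members without 1 symbol were left out. The fit was tested on simulated data with independent noise and known changes, for the diet comparison in control rats only. Deviations shared between arrays and the other contrasts were not simulated.

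Named were all members called in a contrast, up to 3 uncalled members per class, and at most 4 called genes of each other list. Of the carnitine shuttle more than 4 were named. Values by array were given for called members whose diet change exceeded 0.5 in size and for the largest change of each class. Further members given by array and the promoters were chosen after their values were seen. The members and lists were chosen with earlier results of these data known. Alternatives were quantile normalization applied again, centring on array medians, no filter, a filter at the 50th percentile (4.35), a replicate block, the mean of a gene's probe sets, an intensity trend with robust variances, array weights, and each array left out.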

Additional observations from a re-analysis of the deposited data

Results flagged for a closer look

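In 144 groups of 4 arrays (36 members in 4 groups), 6 held an array that stood apart from the other 3 by Dixon's criterion, which chance alone flags in about 1 group in 20. Slc25a12 stood at 6.32 on array 2 of the control CDAA group, against 5.88 to 5.95 on the others. Slc25a22 stood at 8.43 on array 1 of the hydrogen CDAA group, against 8.69 to 8.71. Slc25a25 was at 8.07 on array 1 of the hydrogen normal group, where the others lay at 8.88 to 9.02. Slc25a28 was high on 2 arrays, at 7.61 on array 3 of the control CDAA group (others 7.38 to 7.41) and at 7.00 on array 4 of the control normal group (others 6.70 to 6.75), and the diets still did not overlap. Slc25a3 was at 10.50 on array 4 of the hydrogen normal group, against 10.38 to 10.39. The calls of Slc25a28 and Slc25a3 for the diet held without each of these arrays.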

How the results depend on the processing

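Of the 16 diet calls in control rats, 8 held under all 24 alternatives (Slc25a13, Slc25a21, Slc25a24, Slc25a28, Slc25a3, Slc25a33, Slc25a4 and Slc25a45), as did 12 of the 18 in hydrogen-treated rats (Slc25a1, Slc25a12, Slc25a13, Slc25a17, Slc25a21, Slc25a24, Slc25a28, Slc25a3, Slc25a33, Slc25a36, Slc25a4 and Slc25a44). No called change reversed its sign. With single arrays left out, control rats gave 11 to 16 calls (6 to 9 higher and 4 to 8 lower), and hydrogen-treated rats 12 to 19 (8 to 10 higher and 4 to 9 lower). The 4 lower calls came without array 1 or 3 of the control normal group in control rats and without array 3 of the hydrogen CDAA group in hydrogen-treated rats. Hydrogen on the CDAA diet gave 0 to 2 calls, 2 (both higher) without array 2 of the control CDAA group, when 346 probe sets were called in all, against 71 with every array. The cause was not tested. Quantile normalization applied again turned the split of 9 higher and 7 lower (56.2% higher) in control rats into 7 and 10 (41.2%), and that of 10 and 8 (55.6%) in hydrogen-treated rats into 8 and 11 (42.1%). The mean of a gene's probe sets gave 6 higher and 8 lower in control rats. Replicate numbers were not taken to pair the samples, because the labels name nothing that same-numbered samples share and only 9 of 24 same-numbered pairs had deviations that correlated over 0.1 (−0.129 to 0.325). Their median correlation was 0.0784, against −0.00983 for other pairs, and 8 of 16 samples correlated best with their own number, a hint from the data of some shared deviation. A replicate block gave 16 diet calls in control rats (Slc25a15 lost, Slc25a52 gained), 20 in hydrogen-treated rats (Slc25a25 and Slc25a52 gained), and 0 for hydrogen on either diet and for the interaction. Quantile normalization applied again also called Slc25a10, Slc25a23 and Slc25a37 in control rats and Slc25a15, Slc25a25, Slc25a38 and Slc25a52 in hydrogen-treated rats. Array weights added Slc25a10 and Slc25a52 in control rats. Dim members limit what can be read, as Slc25a31 was called in control rats only with no filter.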
